A study of Homo sapiens with 6 samples.

Results

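Lipocalin 2 (LCN2), the ferroxidase HEPHL1 and 8 other genes of iron handling (TFRC, FTH1, FTL, SLC40A1, SLC11A2, IREB2, HEPH and CP) were followed in cells labelled as the bladder cancer line T24. They make up 10 of the 56303 genes in the count table. The 10 genes were selected on the difference between siFBXL6 and siNC libraries, which was known in advance, so their values in that contrast are a description and carry no test. A filter on low counts kept 9 of the 10, and HEPH did not pass it.

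T24 is a long-cultured human line that came from a bladder tumor. Cells under that label were transfected for 48 h with a control siRNA (siNC) or with siRNA against FBXL6 (siFBXL6), the substrate-binding subunit of an SCF ubiquitin ligase. Each group held 3 libraries of RNA from wild-type cells, all with the same batch label. The labels number the libraries of each group 1 to 3, read here as replicates. The numbers 1 and 2 also stand in the names of the 2 FBXL6 siRNAs of the study, so the siFBXL6 libraries may not all have received the same siRNA, which was not tested.

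The siNC libraries held 58646515, 60967902 and 56814946 counts, and the siFBXL6 libraries held 60968158, 60898556 and 60754015. Between 29680 and 30475 genes had a count in a library. Pairs of libraries of the same group had a chi-square per degree of freedom of 2.76 to 5.80. Of the gene counts between 1 and 20, 70.8% to 71.9% per library were even numbers. Low counts may thus hold fewer independent reads than they list, which would also raise the chi-square and was not tested.

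FBXL6 itself, the target of the siRNA, had 362, 414 and 398 counts in the siNC libraries and 398, 344 and 350 in the siFBXL6 libraries. The groups overlapped, and the log2 fold change was -0.13 (95% interval -0.31 to 0.05, edgeR adjusted p = 0.247). Of the exon bases of FBXL6, 37.0% are shared with other genes, SLC52A2 among them, so its count is uncertain. The target thus did not set the groups apart, and the libraries are called by their labels throughout, with every direction resting on those labels. GAPDH, a glycolytic enzyme often used as a reference, rose from 188 ± 6.15 to 657 ± 4.15 CPM (mean ± SD, n = 3), where CPM is the count scaled to a library of 1000000. Its log2 fold change was 1.80 (edgeR adjusted p = 4.90e-31). An antisense gene shares 14.2% of its exon bases. ACTB, another common reference, was at 1168 ± 24.5 and 1168 ± 25.8 CPM, and the sign of its log2 fold change turned with upper quartile scaling and with library size only.

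The cells carried epithelial transcripts. The 9 epithelial and urothelial markers summed to 3756, 3624 and 3734 CPM in the siNC libraries and 3276, 3263 and 3272 in the siFBXL6 libraries. Of the 8 tested, 6 fell at an edgeR adjusted p under 0.05, as did 19.8% of all genes tested. The basal keratin KRT5 went from 437 ± 6.77 to 313 ± 2.12 CPM, a log2 fold change of -0.48 (adjusted p = 7.84e-16). GATA3, a urothelial transcription factor, was at -0.53 (adjusted p = 7.57e-08), KRT8 at -0.29 (adjusted p = 2.03e-10), KRT19 at -0.15 (adjusted p = 3.41e-05) and EPCAM at -0.15 (adjusted p = 0.000285). These 5 calls, named after their values were seen, were kept in every fit that left out a library. KRT7 was the most abundant of the list, at -0.08 (adjusted p = 0.0187), and its call was lost without siFBXL6 replicate 1 (adjusted p = 0.0741) or 3 (adjusted p = 0.107). The urothelial marker UPK3A had at most 3 counts in a library. T24 is usually described as mesenchymal-like, with abundant vimentin and little E-cadherin. Here VIM rose from 15.6 ± 0.513 to 25.4 ± 0.528 CPM, a log2 fold change of 0.70 (adjusted p = 2.57e-13). CDH1 rose from 118 ± 2.71 to 132 ± 2.79 CPM, at 0.16 (adjusted p = 5.99e-05), and both were looked up after other values were seen. At 118 CPM for CDH1, 437 CPM for KRT5 and 274 CPM for EPCAM against 15.6 CPM for VIM under siNC, the values go against that description of the labelled line. RB1, a tumor suppressor looked up in the same way, was at 3.40 ± 0.370 CPM under siNC and 2.61 ± 0.292 CPM under siFBXL6 (log2 fold change -0.38, adjusted p = 0.0155). The RB1 call was lost with DESeq2 (adjusted p = 0.0682) and without siNC replicate 2 or siFBXL6 replicate 1 or 3 (adjusted p from 0.0637 to 0.0938). The study's methods state that its lines were authenticated by short tandem repeat profiling. Which line this RNA came from was not tested here. In bulk RNA, fewer cells of a type and less RNA per cell cannot be told apart.

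Neutrophils make much LCN2, so markers of other cell types were counted as well. The 9 leukocyte markers summed to 7.66, 8.53 and 8.19 CPM in the siNC libraries and 20.8, 18.9 and 20.2 in the siFBXL6 libraries. CD68 was the most abundant of them and the 1 gene of the list that passed the test, with a log2 fold change of 1.49 (adjusted p = 4.65e-19). Other genes share 85.8% of its exon bases, so its reads cannot be told apart from theirs. Without CD68 the list summed to 0.923, 1.99 and 1.38 CPM under siNC and 1.26, 1.19 and 1.19 CPM under siFBXL6. Of the other 3 tested, PTPRC was at a log2 fold change of -0.62 (adjusted p = 0.158), LYZ at -0.54 (adjusted p = 0.368) and CD14 at 0.06 (adjusted p = 0.901). The neutrophil genes MPO, ELANE, CSF3R and FCGR3B had at most 6 counts in any library, and the T cell gene CD3E at most 4. The part of leukocytes in the other values was otherwise not tested. The 6 erythroid markers summed to at most 0.366 CPM, led by ALAS2 and with HBA1 at 0. The 5 hepatocyte markers summed to between 16.0 and 20.2 CPM, led by ALB, and 0 of the 5 passed with edgeR, 0 with DESeq2 and 0 at an unadjusted p under 0.05. The 4 endothelial markers summed to between 1.76 and 3.37 CPM, led by VWF. PECAM1 was the 1 that passed, at a log2 fold change of 1.28 (adjusted p = 4.40e-05) from 25 to 108 counts a library. Across all genes tested, 40.2% passed with edgeR.

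Cells take up iron bound to transferrin through the transferrin receptor, store what they do not use in ferritin, and export the rest through ferroportin with the help of a copper-dependent ferroxidase. Iron regulatory proteins hold these steps in balance by binding hairpins in messenger RNAs, called iron-responsive elements. In the 5′ untranslated region such a hairpin blocks translation when iron is low, and in the 3′ untranslated region the bound protein keeps the mRNA stable. Lipocalin 2 binds siderophores, the iron carriers of bacteria, and is made by epithelia under inflammatory signals.

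Hairpins of this kind were searched for in the untranslated regions of GENCODE transcripts, as the core CNNNNNCAGTGN with 5 base pairs below the loop. They are shown for FTL, SLC40A1 and TFRC because they carry the known control of these genes by iron. The capitals mark the 6 bases of the loop, and each line gives the strand of the transcript on GRCh38.
FTL, 5′ UTR, chr19:48965334-48965363, plus strand: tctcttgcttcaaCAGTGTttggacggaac
SLC40A1, 5′ UTR, chr2:189580661-189580690, minus strand: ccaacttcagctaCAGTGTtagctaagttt
TFRC, 3′ UTR, chr3:196050979-196051008, minus strand: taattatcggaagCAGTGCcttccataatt
TFRC, 3′ UTR, chr3:196050575-196050604, minus strand: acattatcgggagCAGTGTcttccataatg
TFRC, 3′ UTR, chr3:196050510-196050539, minus strand: tctgtatcggagaCAGTGAtctccatatgt
TFRC, 3′ UTR, chr3:196050463-196050492, minus strand: taattatcgggaaCAGTGTttcccataatt
The canonical transcripts of LCN2, HEPHL1, SLC11A2, IREB2, HEPH and CP held 0 matches, which says only that these letters are not there. Hairpins with an unpaired base among the 5 pairs, or in other transcripts only, are not in this count. It thus does not show that these genes lack control by iron. Over all genes, 19 of 19224 canonical 5′ UTRs (0.0988%) and 121 of 19606 canonical 3′ UTRs (0.617%) held a match.

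LCN2 (chr9:128149071-128153455, plus strand) was already among the most abundant transcripts of the siNC libraries. Its counts were 235766, 250433 and 231288 there and 563423, 521863 and 538235 in the siFBXL6 libraries. The 3 siFBXL6 values all lay above the 3 siNC values, and siFBXL6 replicate 1 was the highest. LCN2 made up 0.402% to 0.411% of all counts under siNC and 0.857% to 0.924% under siFBXL6. It ranked between 6 and 9 among all genes under siNC, and 2 or 3 under siFBXL6, where the mitochondrially encoded MT-CO3 led. In CPM, its level was 4038 ± 14.2 under siNC and 8963 ± 340 under siFBXL6 (mean ± SD, n = 3). The log2 fold change was 1.15 ± 0.026 (SE), with a 95% interval of 1.10 to 1.20, a 2.22-fold difference. Its exons overlap those of no other gene in the table.

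HEPHL1 (chr11:94021361-94113751, plus strand), a membrane-bound multicopper ferroxidase related to hephaestin and ceruloplasmin, had 15629, 16070 and 14990 counts under siNC. In the siFBXL6 libraries it had 36873, 36664 and 37105. The replicates of each group lay close together and the groups did not overlap. Its level was 263 ± 3.86 CPM under siNC and 611 ± 4.40 CPM under siFBXL6. The log2 fold change was 1.22 ± 0.028 (SE), with a 95% interval of 1.16 to 1.27, a 2.32-fold difference. Of the 2022 genes with a siNC mean of at least 100 CPM, 10 had a log2 fold change at or above that of LCN2, with LCN2 and HEPHL1 among them. Over all 21298 genes tested, 292 had a higher log2 fold change than LCN2 and 256 a higher one than HEPHL1.

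**Figure D1:**
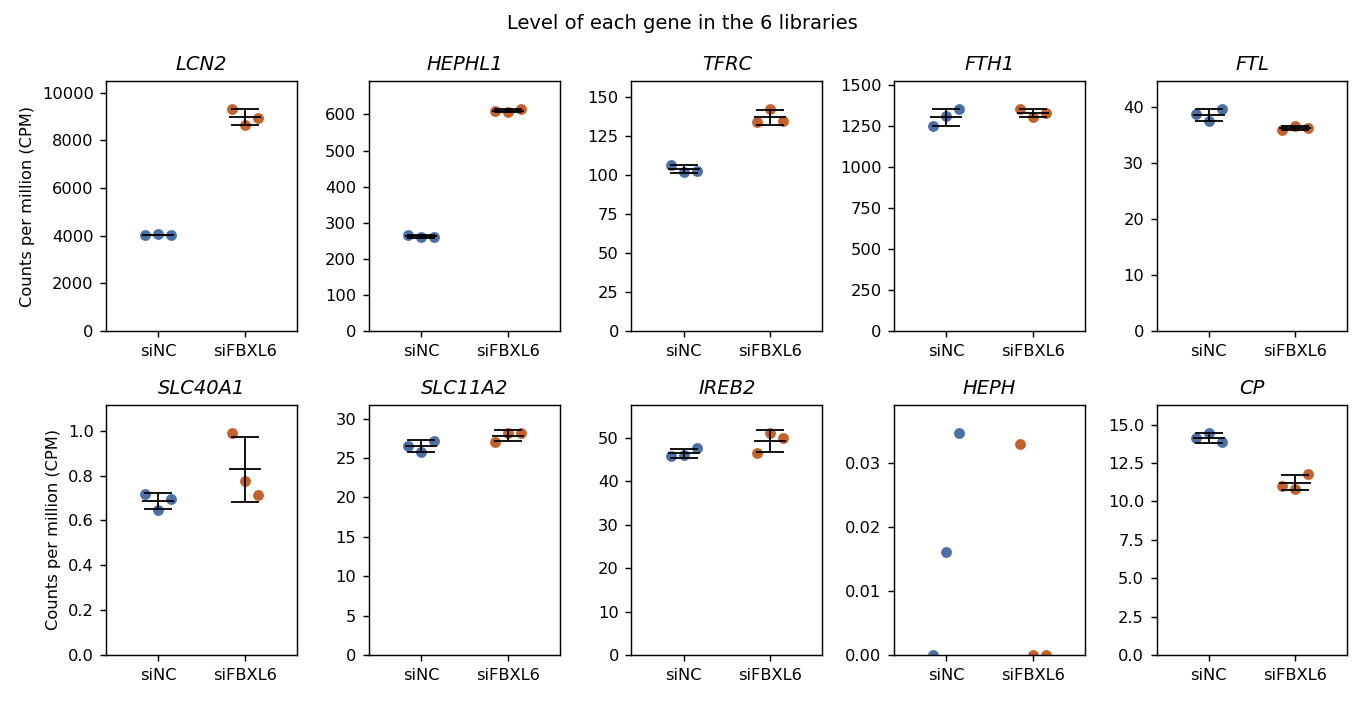
Level of each of the 10 genes in every library, in CPM on a linear axis from 0, for the libraries labelled siNC (blue) and siFBXL6 (orange). Points are libraries and black bars are the mean ± SD of 3, not drawn for HEPH, which had at most 2 counts. LCN2, HEPHL1 and TFRC lay higher and CP and FTL lower in every siFBXL6 library.

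The LCN2 promoter is printed because the gene responds to NF-kappaB in many epithelia and genes of that pathway are described further on. The 250 bases before the RefSeq start (GRCh38.p14, plus strand, chr9:128149203-128149452) held 1 match to the kappaB consensus of 10 bases, in capitals. It starts 175 bases before the RefSeq start, lies on the minus strand and reads GGGACATTCC there. The gene as given in the count table begins upstream of this window.
LCN2 promoter: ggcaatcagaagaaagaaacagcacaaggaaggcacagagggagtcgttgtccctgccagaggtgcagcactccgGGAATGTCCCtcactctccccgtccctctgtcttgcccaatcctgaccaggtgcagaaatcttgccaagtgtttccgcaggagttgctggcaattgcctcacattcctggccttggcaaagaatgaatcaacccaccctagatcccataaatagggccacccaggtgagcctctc
Of 35116 such windows of RefSeq genes, both strands searched, 3498 (9.96%) held a match. RefSeq windows were found for 8 of the 10 genes, and LCN2, SLC11A2 and IREB2 had a match in at least 1. SLC11A2 and IREB2 also had windows without a match, so this count by gene cannot be set against the share of windows. The windows of HEPHL1 and TFRC had 0 matches.

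TFRC (chr3:196027183-196082189, minus strand), the transferrin receptor, carries the 4 hairpins printed above in its 3′ UTR. It had 6233, 6291 and 5906 counts under siNC and 8097, 8607 and 8120 under siFBXL6. Every siFBXL6 library lay above every siNC library. Its level was 104 ± 2.49 CPM and 137 ± 4.75 CPM, a log2 fold change of 0.40 ± 0.032 (SE) with a 95% interval of 0.34 to 0.47. SLC11A2 (chr12:50979401-51028566, minus strand), the divalent metal transporter that moves iron out of endosomes, had 1555, 1591 and 1562 counts under siNC. Under siFBXL6 it had 1635, 1706 and 1700. After normalization the groups overlapped, at 26.5 ± 0.726 and 27.8 ± 0.687 CPM, and the 95% interval of the log2 fold change ran from -0.02 to 0.16.

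Ferritin stores iron in a shell of heavy (FTH1) and light (FTL) subunits, and the FTL mRNA carries the 5′ hairpin printed above. FTH1 (chr11:61959718-61967660, minus strand) had 73108, 80902 and 77733 counts under siNC and 81982, 78915 and 80037 under siFBXL6. The groups overlapped, and the log2 fold change was 0.03 ± 0.029 (SE), with a 95% interval of -0.03 to 0.09. Without siNC replicate 1 the log2 fold change was -0.0023. FTL (chr19:48965301-48966878, plus strand) had 2266, 2319 and 2278 counts under siNC and 2168, 2215 and 2189 under siFBXL6. Here the siFBXL6 libraries lay below the siNC libraries by a small margin, with a log2 fold change of -0.09 ± 0.040 (SE) and a 95% interval of -0.17 to -0.01.

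Ferritin counts have limits of their own. Of the exon bases of FTH1, 62.4% are shared with BEST1 on the opposite strand, and BEST1 was listed at between 61460 and 64620 counts a library, so reads of these genes cannot be told apart. The table also holds 25 FTH1 pseudogenes, whose summed counts were 0.836% to 1.10% of those of FTH1, and 16 FTL pseudogenes at 0.406% to 0.750% of FTL. How reads that fit several genes were counted is not given in the sources used here. Ferritin is also regulated at translation, which these counts do not measure.

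SLC40A1 (chr2:189560579-189583758, minus strand), or ferroportin, the known exporter of iron from cells, was scarce. It had 42, 40 and 40 counts under siNC and 60, 47 and 43 under siFBXL6. The first siFBXL6 library was the highest and the groups overlapped in CPM. The log2 fold change was 0.27 ± 0.24 (SE), with a 95% interval of -0.22 to 0.76, which spans both directions. What difference could be detected at these counts was not tested. Without siFBXL6 replicate 1 the log2 fold change was 0.12, the lowest of the alternatives, which reached 0.37.

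CP (chr3:149162410-149222055, minus strand), ceruloplasmin, had 825, 895 and 795 counts under siNC and 667, 654 and 710 under siFBXL6. It lay lower in every siFBXL6 library, at 14.1 ± 0.323 against 11.2 ± 0.502 CPM. This gave a log2 fold change of -0.34 ± 0.063 (SE), with a 95% interval of -0.46 to -0.21. CP shares 19.4% of its exon bases with HPS3 on the opposite strand, which rose by 0.24 on the log2 scale (adjusted p = 1.01e-05). HEPH (chrX:66162549-66268867, plus strand), or hephaestin, had 0, 1 and 2 counts under siNC and 2, 0 and 0 under siFBXL6, too few for a fold change.

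IREB2 (chr15:78437431-78501456, plus strand), iron regulatory protein 2, had 2679, 2845 and 2739 counts under siNC. Under siFBXL6 it had 2818, 3097 and 3019, and the groups overlapped in CPM. The log2 fold change was 0.08 ± 0.039 (SE), with a 95% interval of 0.0047 to 0.16.

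Of the 9 genes tested, 4 were called at an edgeR adjusted p under 0.05, with LCN2, HEPHL1 and TFRC higher and CP lower. Of all 21298 genes tested, 40.2% were called, 20.5% higher and 19.8% lower, and 2.92% were called with at least a 2-fold difference. The groups did not overlap in CPM for 5 of the 9, and for 48.2% of all genes tested. Nothing is read from these counts, since the contrast chose the genes.

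**Figure D2:**
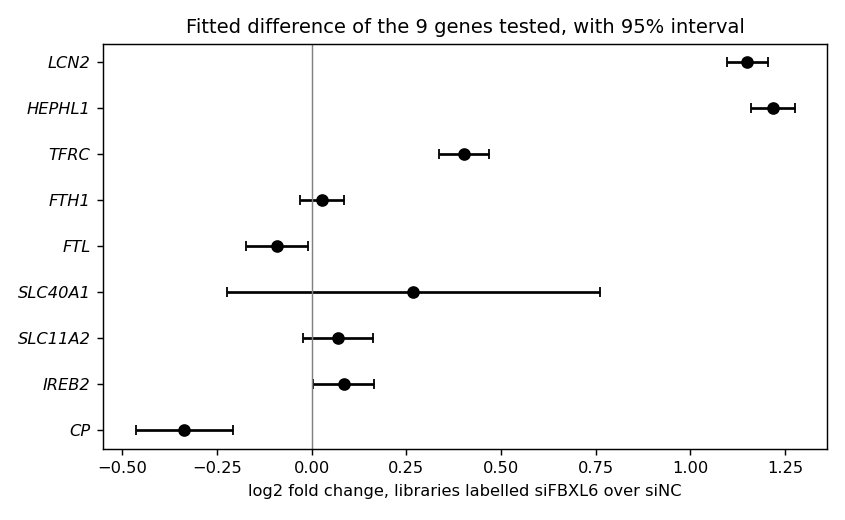
Fitted log2 fold change of the libraries labelled siFBXL6 over siNC for the 9 genes tested, with 95% intervals from the standard error. HEPHL1 and LCN2 lie at 1.22 and 1.15, TFRC at 0.40, CP at -0.34, and SLC40A1 has the widest interval.

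Levels were compared between genes per length, as TPM, which divides each count by the summed exon length of its gene and scales the sum to 1000000. LCN2 was first at 7293 ± 26.2 TPM under siNC (mean ± SD, n = 3), followed by FTH1 at 1855 ± 69.2 TPM. HEPHL1 at 142 ± 2.50 TPM and FTL at 127 ± 3.55 TPM came next. TFRC stood at 38.0 ± 1.02 TPM, IREB2 at 12.4 ± 0.254 TPM and SLC11A2 at 7.79 ± 0.216 TPM. CP at 5.60 ± 0.127 TPM, SLC40A1 at 0.458 ± 0.0251 TPM and HEPH at 0.00689 ± 0.00706 TPM were the lowest. The library values of neighbours in this order did not overlap. Under siFBXL6 the order was the same, with LCN2 at 16197 ± 544 TPM and HEPHL1 at 330 ± 1.92 TPM. The exon length covers every annotated exon, so a gene that uses few of them is understated.

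**Figure D3:**
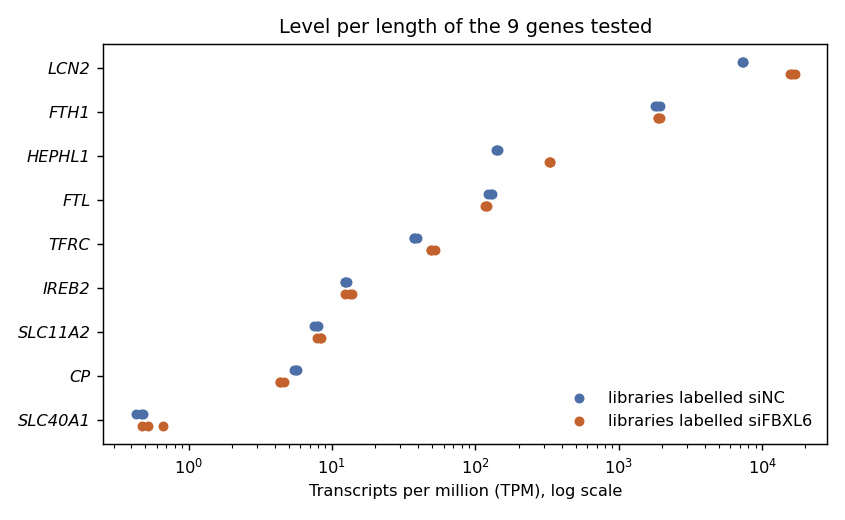
Level per length of the 9 genes tested in each library, in TPM on a log axis, for libraries labelled siNC (blue) and siFBXL6 (orange). From LCN2 at 7293 TPM under siNC the levels fall to SLC40A1 at 0.458 TPM.

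The other iron-handling genes were taken from lists that hold none of the 10. Of 87 such genes, 81 were tested, and 16 rose and 21 fell at an edgeR adjusted p under 0.05, or 45.7% of those tested against 40.2% of all genes. Their median log2 fold change was -0.02, against -0.01 over all genes tested. Adjusted p-values from here on are those of edgeR over all genes tested.

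Among 14 genes of iron uptake and the transferrin cycle, 12 were tested. Of these, 4 rose and 3 fell, against 20.5% and 19.8% of all genes tested. The 4 that rose were MELTF, a membrane-bound relative of transferrin (log2 fold change 0.58, adjusted p = 6.34e-15), STEAP1 (0.42, 4.05e-11), the non-transferrin iron importer SLC39A14 (0.33, 2.45e-08) and the metalloreductase STEAP2 (0.46, 3.52e-07). The groups did not overlap for these 4. Of those that fell, named after their values were seen, STEAP3, the ferrireductase of the endosome, was at -0.24 (adjusted p = 0.000200). HFE was at -0.29 (adjusted p = 0.0279), but its groups overlapped in CPM. The HFE call was lost with DESeq2 (adjusted p = 0.102) and without siNC replicate 2 or 3 or siFBXL6 replicate 1 or 2 (adjusted p from 0.0576 to 0.181). STEAP4 was at -0.58 (adjusted p = 0.0282), and its call was lost with DESeq2 (adjusted p = 0.100) and without siNC replicate 1 or 2 or siFBXL6 replicate 3 (adjusted p from 0.0773 to 0.151). TF, the transferrin gene, was at 2.60 ± 0.125 CPM under siNC and 2.51 ± 0.333 CPM under siFBXL6 (adjusted p = 0.808).

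Of 7 genes of the export and hepcidin axis, 5 were tested, and 2 fell, NEO1 and BMP2, against 19.8% of all genes tested. NEO1, a receptor that binds hemojuvelin, had a log2 fold change of -0.33 (adjusted p = 3.55e-08), and BMP2, a ligand upstream of hepcidin, -0.33 (adjusted p = 4.61e-05). HAMP, which encodes hepcidin, the hormone that removes ferroportin from the membrane, had at most 6 counts in a library and was not tested.

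Of 7 genes of storage and iron chaperoning, 6 were tested. Against 20.5% of all genes tested, 3 of the 6 rose. These were the glutaredoxin GLRX3 (0.16, adjusted p = 0.00698), its partner BOLA2 (0.22, adjusted p = 0.00893) and NCOA4, the receptor that delivers ferritin to lysosomes (0.12, adjusted p = 0.0114). BOLA2 shares 90.8% of its exon bases with other genes, and its call was lost without siFBXL6 replicate 3 (adjusted p = 0.0794). The NCOA4 call was lost without siNC replicate 2 (adjusted p = 0.0740) or siFBXL6 replicate 2 (adjusted p = 0.0878). FTMT, the mitochondrial ferritin, had 0 counts in all 6 libraries.

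The list written for iron sensing held 4 genes, all tested, and 2 rose, against 20.5% of all genes tested. EPAS1, or HIF-2 alpha, went from 107 ± 2.60 to 146 ± 2.96 CPM, a log2 fold change of 0.45 (adjusted p = 9.24e-14). TTC7A, whose part in iron sensing was not tested, had a log2 fold change of 0.13 (adjusted p = 0.0204). Its call was lost in 4 of the 6 fits that left out a library. These were the fits without siNC replicate 1 or 2 or siFBXL6 replicate 2 or 3, with adjusted p from 0.0581 to 0.0800, and the call was also lost with DESeq2 (adjusted p = 0.0594) and with library size only (adjusted p = 0.0590). ACO1, or iron regulatory protein 1, was at 0.09 (adjusted p = 0.0566), and passed without siNC replicate 1 (adjusted p = 0.0218) and with a filter of 10 counts in every library (adjusted p = 0.0479). FBXL5, the F-box protein that marks IREB2 protein for degradation when iron is plentiful, was at -0.01 (adjusted p = 0.896).

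The 28 genes of mitochondrial iron and iron-sulfur cluster assembly were all tested. Of these, 3 rose and 7 fell, against 20.5% and 19.8% of all genes tested. SLC25A37, the mitochondrial iron importer mitoferrin 1, rose from 44.6 ± 3.18 to 63.9 ± 0.333 CPM, a log2 fold change of 0.52 (adjusted p = 1.09e-12). The mitochondrial chaperone HSPA9 was higher by 0.15 (adjusted p = 9.93e-05) and CIAO2B, which helps deliver clusters in the cytosol, by 0.27 (adjusted p = 0.000281). Among those that fell was the cytosolic scaffold protein NUBP2, at -0.30 (adjusted p = 0.000829). The others that fell, named after their values were seen, were NFS1, FDX2, GLRX5, CIAPIN1, FDXR and NUBPL. They lay between -0.33 for NFS1 and -0.17 for CIAPIN1 (adjusted p from 0.000862 to 0.0284), and were not followed singly under the alternatives. Other genes share 70.9% of the exon bases of FDX2, and the groups of NUBPL overlapped in CPM. With DESeq2, 8 of the 28 were called. The median log2 fold change of the 28 was -0.05.

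Of 23 genes of heme synthesis, breakdown and transport, 22 were tested. Among them 4 rose and 7 fell, against 20.5% and 19.8% of all genes tested. HMOX2, the constitutive heme oxygenase, was higher by 0.41 (adjusted p = 1.49e-12). The synthesis enzymes CPOX (0.22, adjusted p = 3.61e-07) and ALAD (0.25, adjusted p = 3.30e-06) rose, as did SLC48A1, a heme transporter named after its value was seen, whose call was lost without siNC replicate 1 (adjusted p = 0.0697). The heme-binding protein PGRMC1 fell, at -0.28 (adjusted p = 3.83e-09). HMOX1, the inducible heme oxygenase, had a log2 fold change of -0.36 (adjusted p = 0.0408), but its groups overlapped in CPM. That call was lost without siNC replicate 2 (adjusted p = 0.175) or 3 (adjusted p = 0.136), without siFBXL6 replicate 3 (adjusted p = 0.300), and with DESeq2 (adjusted p = 0.137).

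Lipocalin 2 enters cells through surface receptors, and the list of its partners held 4 genes, all tested, of which 2 fell, against 19.8% of all genes tested. LRP2, or megalin, an endocytic receptor that binds lipocalin 2, had 217, 221 and 206 counts under siNC and 99, 136 and 124 under siFBXL6. It fell at a log2 fold change of -0.87 (adjusted p = 1.74e-06), and the groups did not overlap. SLC22A17, described as a lipocalin 2 receptor, was at -0.42 (adjusted p = 1.29e-05), and shares 36.5% of its exon bases with another gene.

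HEPHL1 and CP need copper, and 10 genes of copper supply were tested, of which 5 rose and 3 fell, against 20.5% and 19.8% of all genes tested. COX17, which carries copper to cytochrome oxidase, was higher by 0.40 (adjusted p = 1.14e-10). The others that rose, named after their values were seen, were SLC31A1, SLC31A2, ATOX1 and COMMD1. SLC31A2 shares 63.1% of its exon bases with FKBP15 and COMMD1 38.5% with other genes. Without siFBXL6 replicate 1, COMMD1 had an adjusted p of 0.109 and its call was lost, as it was with DESeq2 (adjusted p = 0.0504). The copper pumps ATP7A (-0.27, adjusted p = 0.000299) and ATP7B (-0.38, adjusted p = 0.000317) fell, as did CCS (-0.30, adjusted p = 0.000221), the chaperone of superoxide dismutase.

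Of 13 genes known to induce LCN2, 12 were tested and 8 rose, against 20.5% of all genes tested. IL1B, an inflammatory cytokine, went from 143 ± 2.35 to 395 ± 2.84 CPM, with a log2 fold change of 1.47 (adjusted p = 9.27e-29). IL1A was higher by 0.51 (adjusted p = 1.82e-15), and the NF-kappaB genes NFKBIZ (0.46, adjusted p = 7.84e-14) and NFKB1 (0.42, adjusted p = 1.83e-11) rose as well. The groups did not overlap for these 4. IL17A had 0 counts in all 6 libraries. The list was written with earlier results of these data known, so its direction is no independent evidence, and its part in the LCN2 level was not tested.

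Of the 18 other members of the lipocalin family, 5 passed the filter on low counts. Against 20.5% of all genes tested, 1 of the 5 rose. This was RBP4, the retinol carrier of plasma, with 86, 107 and 86 counts under siNC and 144, 187 and 142 under siFBXL6 (log2 fold change 0.73, adjusted p = 0.000203). LCN1, LCN6, LCN9 and OBP2A had 0 counts in every library.

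**Figure D4:**
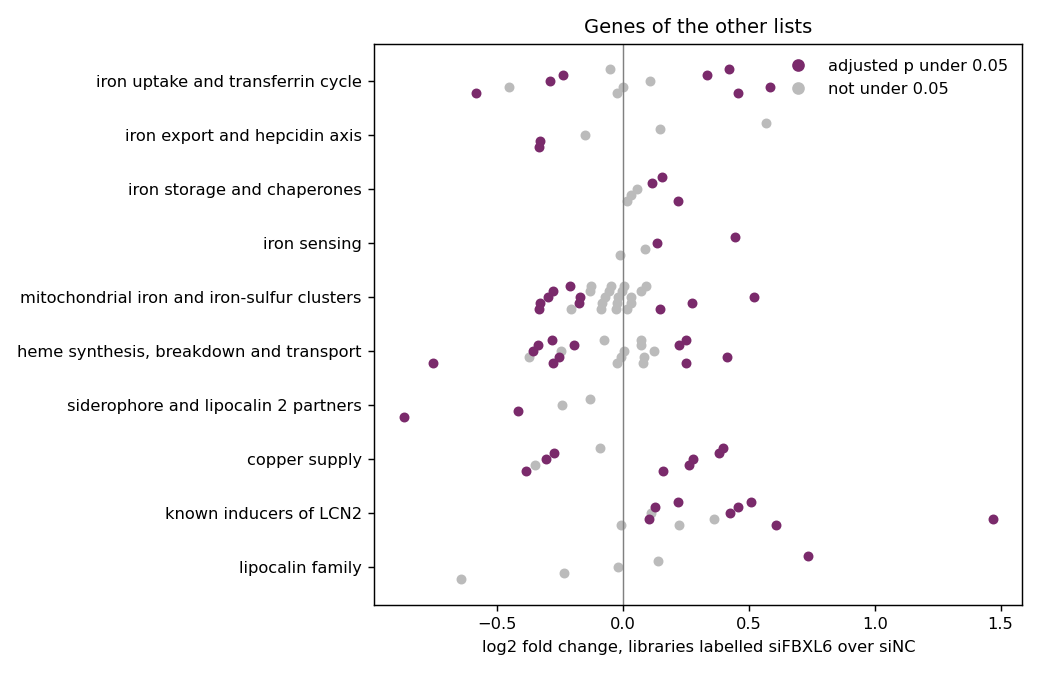
Log2 fold change of the libraries labelled siFBXL6 over siNC for every tested gene of the 10 lists, with genes at an adjusted p under 0.05 in purple and the others in grey. Points are spread vertically for legibility only, the point farthest right is IL1B at 1.47, and the point farthest left is LRP2 at -0.87.

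The genes whose profile over the 6 libraries was most like that of LCN2 were found by Pearson correlation of log2 CPM over 16193 genes whose mean level reached 1 CPM. They were RP11-2C24.4 (r = 0.9999), UXS1 (r = 0.9996), PSMD2 (r = 0.9996), CD68 (r = 0.9994) and FST (r = 0.9994). For HEPHL1 they were CYLD (r = 0.9999), RP1-68D18.4 (r = 0.9999), PLAU (r = 0.9999), GAPDH (r = 0.9999) and HBEGF (r = 0.9998). LCN2 and HEPHL1 had r = 0.998 with each other, at rank 38 among genes like LCN2 and rank 79 among genes like HEPHL1. The 6 libraries fall into 2 groups, so r mostly follows the difference between them, and 496 genes had r above 0.99 with LCN2 and 539 with HEPHL1. The log2 fold changes of these genes differed, from 0.37 for UXS1 to 1.80 for GAPDH.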

How the data were processed

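RNA-seq libraries from 2 µg of RNA (stranded mRNA kit) were deposited as 1 table of raw counts per gene for 6 libraries. Per the study's methods, the authors trimmed with Trimmomatic (v0.36), aligned to GRCh38 with HISAT2 and counted with featureCounts; the submitters' processing notes name fastp 0.23.0 and STAR instead, with Subread 1.5.1. The strand setting and the treatment of multi-mapping and overlapping reads are not given in the sources used here. The summed exon length, deposited by the authors, served only for TPM.

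Genes kept by filterByExpr (21298) were normalized with TMM and tested with edgeR 4.0.16 (quasi-likelihood, limma 3.58.1, R 4.3.3), with condition as the only term and Benjamini-Hochberg adjustment. Calls needed an adjusted p under 0.05. The biological coefficient of variation was 3.57%. The steps were tested on simulated data. Alternatives included DESeq2 1.42.0, other scalings and filters, a replicate block and leaving out each library. The study speaks of independent replicates in general, but neither it nor the labels say that these libraries are separate cultures, so p-values measure only the spread between these samples, which may be technical.

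The 10 genes and all lists were chosen with earlier results of these data known. Named genes are the 10, FBXL6, GAPDH, up to 4 genes with the smallest adjusted p in each iron, copper, inducer and lipocalin list plus any called at 2-fold, the most abundant marker of each cell type, the 5 most correlated genes for LCN2 and HEPHL1, and ACO1, FBXL5, NCOA4, HMOX1, HAMP, TF and SLC22A17. Others were named after their values were seen. CIAO2B, CIAO3 and HJV were found under older symbols. Promoters are from RefSeq (GRCh38.p14) and transcripts from GENCODE release 44. The result of the hairpin search for 1 gene is not reported here.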

Additional observations from a re-analysis of the deposited data

How the results depend on the processing

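The number of genes called was 8569, and between 7026 (DESeq2) and 8707 (library size only) under the other settings. The other iron-handling genes called numbered 37, and between 31 and 39 under the alternatives. The labels number the replicates 1 to 3 in both groups, and deviations of same-numbered libraries correlated at -0.011, 0.000080 and 0.013. No effect shared by number was thus seen, but these values cannot show whether same-numbered samples were prepared together. With the replicate number as a block, 8408 genes and 37 of the iron-handling genes were called. Of 117 values of the 9 genes under 13 alternatives, 115 moved by less than 1 SD between replicates. The exceptions were HEPHL1 at 1.20 with upper quartile scaling and 1.19 with library size only, against 1.22. With the same scalings LCN2 also moved down, to 1.13 with both, against 1.15, which was within its SD between replicates. ACTB, given below, moved the same way, so the shift was not particular to HEPHL1. Its cause was not tested. With all alternatives, LCN2 ranged from 1.12 to 1.18 and TFRC from 0.37 to 0.42. FTH1 ranged from -0.0023 to 0.055. Of 871 values of 67 other named genes, 824 kept their direction and their side of the threshold, 31 lost a call and 2 gained one. The other 14 turned in sign, all in genes without a call. ACTB, at 0.00020, was at -0.019 with upper quartile scaling, -0.022 with library size only and -0.00083 with no filter. With a library left out, ACTB ranged from -0.018 to 0.018, FBXL5 from -0.041 to 0.031, TF from -0.15 to 0.040, ALB from -0.13 to 0.021 and VWF from -0.20 to 0.18; the cause was not tested. The order of the 10 genes per length under siNC was the same with TMM-scaled counts per kilobase. That scaling is shared by all genes of a library and could not have changed the order, so nothing is read from this. SLC40A1 and HEPH had few counts, and what difference could be detected at such counts was not tested.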
